A study of Mus musculus with 2 samples.

Results

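The forkhead factor genes are the 44 protein-coding genes, of 21853 in the GENCODE M21 annotation of the mm10 build, whose symbol is Fox followed by a letter from a to s, a number and at most 1 further letter. They encode transcription factors that share the winged-helix forkhead domain and bind DNA at sites built around TGTTTAC and related sequences. Some, the FOXA proteins above all, can bind and open closed chromatin and act in epithelia derived from endoderm, among them the urothelium of the bladder. Others pattern the mesenchyme under an epithelium in answer to hedgehog signals from it, and the FOXO proteins enter the nucleus when insulin and growth factor signalling through AKT is low.

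DNase-seq was used to find open chromatin in the urinary bladder of adult female B6CASTF1/J mice, the first-generation cross of C57BL/6J and CAST/EiJ, aged 18 to 20 months. DNase I cuts DNA where nucleosomes leave it exposed, and a stretch dense in cuts is called a peak. The 2 libraries are biological replicates 1 and 2 of 1 group, from separate biosamples listed under the same donor record, and the labels used here do not say whether these came from separate animals. The spread between the libraries may therefore be partly technical, and with 1 group there was no comparison of conditions and no p-value. Bladder is a bulk tissue of urothelium, connective tissue, smooth muscle, vessels and nerves, so that fewer cells of a type and less accessible DNA per cell cannot be told apart.

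In the longer deposited lists there were 84591 peaks for replicate 1 and 112174 for replicate 2, and the footprint lists, of short stretches protected from DNase I inside accessible DNA, held 176795 and 229390 entries. The median peak signal, the authors' own value per peak in arbitrary units, was 0.819 in replicate 1 and 0.760 in replicate 2. Markers of urothelium had promoter peaks in both libraries at 9 of 9 genes, with promoter signals from 0.345 (Krt20) to 5.77 (Gata3) over genes and libraries. Those of smooth muscle had them at 6 of 8 genes in both, those of fibroblasts at 6 of 6, those of endothelium at 3 of 5, with none at Pecam1 and Emcn, and those of other organs at 2 of 7, with none at Alb, Apoa1, Umod and Sftpc.

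A promoter was taken as 1 kb either side of any transcription start site (TSS) of the gene, and promoter signal is that of its strongest promoter peak. Of the 44 forkhead genes, 30 had a promoter peak in replicate 1, against 64.1% of all protein-coding genes, and 32 had one in replicate 2, against 66.4%. In both libraries 29 had one, against 63.0% of all genes, and 11 had none in either, against 32.5%. In the shorter, stricter list 25 had one in both, against 58.3%. The remaining 4 had a peak in 1 library. As a family the forkhead genes thus had open promoters at a share near that of all genes. The role groups within it, set with earlier results of these data known, differed in their counts, with no test. All 4 FoxO genes, all 4 FoxP genes, 7 of 8 mesenchyme and vessel genes and 7 of 8 broadly acting genes had a peak in both libraries. Of the epithelial genes 5 of 11 did, and 2 of 9 genes of nervous system, gonad and early embryo. Foxn4, of retina and spinal cord, was placed among the broadly acting genes. The FoxP genes have from 4 to 14 TSSs, against 1 or 2 in the group of nervous system, gonad and embryo. Whether this bears on the counts was not tested. The median of the mean promoter signals of the 29 was 2.86, against 3.51 for the 13771 genes with a peak in both libraries. Of the 29, 10 lay above that median of all genes. The medians of the 29 in each library were 2.78 and 2.87 (SD 0.0651, n = 2).

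**Figure D1:**
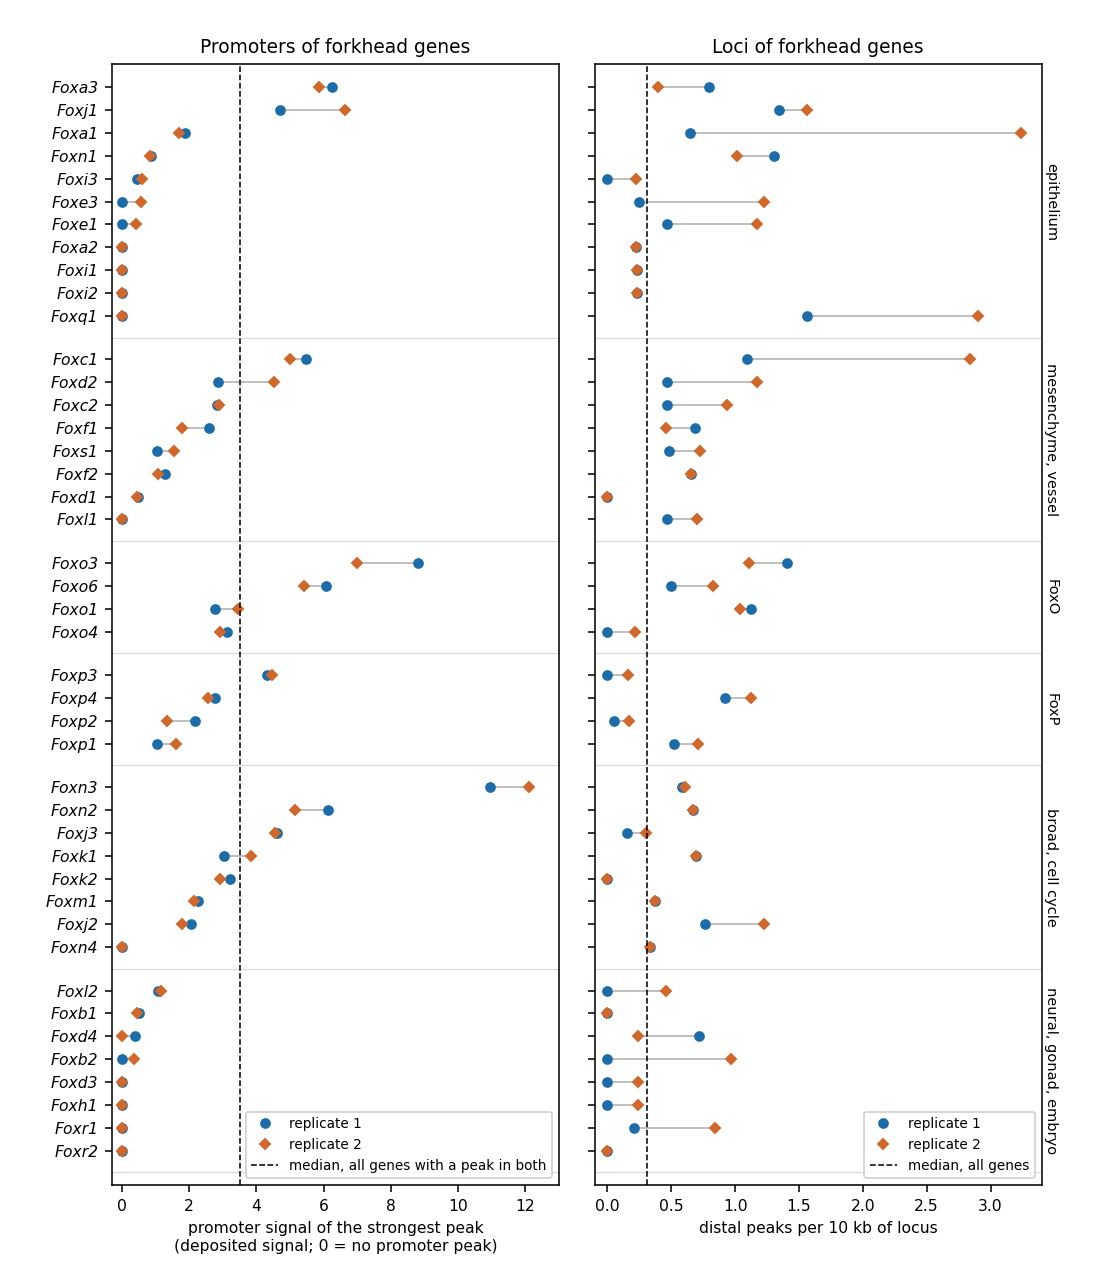
Promoter signal (left, deposited signal units, 0 where no promoter peak was listed) and distal peaks per 10 kb of locus (right) of 43 forkhead genes, 1 row per gene, with circles for replicate 1, diamonds for replicate 2 and dashed lines for the median of all genes. FoxO, FoxP, mesenchyme and broadly acting genes have points off 0 on the left with 2 exceptions, Foxl1 and Foxn4, while 4 of the 8 genes drawn in the bottom group sit at 0 in both libraries.

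Sequences are shown for 8 accessible regions on which the results turn, 6 of them away from promoters, read from the mm10 assembly (GRCm38.p6) and written 5′ to 3′ on the strand of the gene. Capitals mark bases inside a footprint in both libraries, except for Foxq1, where they mark the matches to the AP-1 consensus TGANTCA. They are the part of the strongest Foxj1 promoter peak upstream of its TSS (chr11:116335400-116335540, minus strand), a Foxn3 peak in an intron (chr12:99392041-99392260, minus strand), and the strongest distal peak outside exons at Foxc2 (chr8:121113401-121113620, plus strand, in an intron of the gene model Gm20388), Foxc1 (chr13:31801281-31801480, plus strand, between genes), Foxf2 (chr13:31632581-31632760, plus strand, between genes), Foxo3 (chr10:42278061-42278280, minus strand, between genes) and Foxk1 (chr5:142440521-142440800, plus strand, in a Foxk1 intron). The Foxq1 region (chr13:31573201-31573420, plus strand, between genes) is the strongest of that gene's distal peaks.
Foxj1 promoter: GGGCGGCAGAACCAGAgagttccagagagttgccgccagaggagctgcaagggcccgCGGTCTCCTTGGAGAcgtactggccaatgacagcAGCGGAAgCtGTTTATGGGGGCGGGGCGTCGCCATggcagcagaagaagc
Foxn3 intron: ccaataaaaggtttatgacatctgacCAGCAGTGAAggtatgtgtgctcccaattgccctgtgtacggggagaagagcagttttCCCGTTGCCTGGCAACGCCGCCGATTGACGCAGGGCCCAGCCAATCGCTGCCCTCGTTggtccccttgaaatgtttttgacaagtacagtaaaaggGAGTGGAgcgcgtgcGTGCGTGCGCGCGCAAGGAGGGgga
Foxc2 distal: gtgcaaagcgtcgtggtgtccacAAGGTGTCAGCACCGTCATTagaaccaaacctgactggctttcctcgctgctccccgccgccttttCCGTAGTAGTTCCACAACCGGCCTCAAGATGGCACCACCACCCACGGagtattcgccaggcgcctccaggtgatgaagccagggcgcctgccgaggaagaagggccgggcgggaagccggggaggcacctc
Foxc1 distal: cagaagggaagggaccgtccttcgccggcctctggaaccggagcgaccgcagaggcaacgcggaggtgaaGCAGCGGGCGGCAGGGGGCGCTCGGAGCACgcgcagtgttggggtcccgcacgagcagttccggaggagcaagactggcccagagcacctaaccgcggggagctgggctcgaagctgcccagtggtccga
Foxf2 distal: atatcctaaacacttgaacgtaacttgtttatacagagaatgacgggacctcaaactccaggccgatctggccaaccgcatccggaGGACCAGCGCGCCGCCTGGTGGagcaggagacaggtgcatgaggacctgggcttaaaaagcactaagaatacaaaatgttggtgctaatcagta
Foxq1 distal: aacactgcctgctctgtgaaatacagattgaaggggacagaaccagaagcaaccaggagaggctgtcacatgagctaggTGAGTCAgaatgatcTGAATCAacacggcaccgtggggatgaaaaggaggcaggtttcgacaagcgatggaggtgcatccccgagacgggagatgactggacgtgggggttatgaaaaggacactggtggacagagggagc
Foxo3 distal: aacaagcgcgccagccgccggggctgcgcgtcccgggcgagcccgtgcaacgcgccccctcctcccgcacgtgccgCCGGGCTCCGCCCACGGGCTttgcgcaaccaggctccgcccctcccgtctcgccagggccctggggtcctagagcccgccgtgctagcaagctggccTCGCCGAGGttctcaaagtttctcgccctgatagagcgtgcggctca
Foxk1 distal: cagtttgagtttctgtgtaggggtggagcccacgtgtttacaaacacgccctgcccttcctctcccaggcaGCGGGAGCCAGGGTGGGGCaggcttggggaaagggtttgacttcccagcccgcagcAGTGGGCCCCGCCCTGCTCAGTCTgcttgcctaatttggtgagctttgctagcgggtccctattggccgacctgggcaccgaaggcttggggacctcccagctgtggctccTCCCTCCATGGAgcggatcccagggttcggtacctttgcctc

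Among the epithelial genes, Foxa1 and Foxj1 were open at their promoters in both libraries. Foxa1, a pioneer factor of the urothelium and other epithelia (chr12:57540628-57546916, minus strand), had a promoter signal of 1.88 in replicate 1 and 1.71 in replicate 2, a mean of 1.79 ± 0.121. The libraries lay close together, and 25.4% of all genes with a peak in both libraries had a lower mean. Its strongest promoter peak lay 710 bp and 730 bp upstream of its protein-coding TSS, with 3 promoter peaks in replicate 1 and 5 in replicate 2. That TSS lies 795 bp inside the gene, and the peak overlaps the outermost gene start. The RefSeq start lies further upstream, 1908 bp from that TSS. Foxj1, the master regulator of motile cilia (chr11:116330704-116335399, minus strand), had 4.71 and 6.63, and its peak was centred 52 bp and 42 bp upstream of the TSS. The Foxj1 libraries differed by more than counting error, since the exact Poisson 95% intervals were 4.32 to 5.12 and 6.16 to 7.12. The Foxj1 sequence held 5 runs inside footprints of both libraries. The second of these holds 13 of the 14 bases of GTCTCCTTGGAGAC. This matches a loose form of the RFX consensus, GTNNCC and GGNNAC with 2 bases between, in which any base may stand at N. RFX factors are known partners of FOXJ1 in ciliated cells, and whether one binds here was not tested. Matches to that loose form, counted after the sequences had been read, lay in the central 200 bp of 1.41% and 1.35% of all promoter peaks.

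Foxa3, a FOXA gene of liver and gut (chr7:19013284-19023538, minus strand), had a promoter signal of 6.24 and 5.87. That peak was centred 762 bp and 732 bp upstream and is a promoter peak of Sympk too, and Foxa3 had no promoter peak of its own in either library. Foxn1, of thymus and hair follicle epithelium, had 0.861 and 0.831, and Foxi3, of ectodermal appendages, had 0.443 and 0.601. Both were low, with 9.28% of all genes with a peak in both libraries below Foxn1 and 2.95% below Foxi3. Foxe1, a thyroid factor, had a peak of 0.424 and Foxe3, a lens factor, 1 of 0.574, in replicate 2 only. Foxa2, of gut, lung and pancreas, Foxi1, of ion-transporting cells, and Foxi2 had no promoter peak in either library.

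Foxq1, a factor of hair and stomach epithelium (chr13:31556134-31560976, plus strand), had no promoter peak at its GENCODE TSS, but the gene start in RefSeq lies 2036 bp downstream of it. A peak overlapping that start had 3.66 in replicate 1 (chr13:31558041-31558460) and 2.60 in replicate 2 (chr13:31558001-31558500). This peak lies inside the Foxq1 gene body and is a promoter peak of A530084C06Rik. The Foxq1 locus, the gene with 20 kb on either side, was also 1 of the densest in distal peaks, those that overlap no promoter of a protein-coding gene, with 7 in replicate 1 and 13 in replicate 2. Foxh1, which has no promoter peak at its GENCODE TSS either, had 4.87 and 4.82 at its RefSeq start, 1666 bp away, in a peak that is a promoter peak of Ppp1r16a. With RefSeq starts added, an alternative chosen after seeing the data, 31 of 44 forkhead genes had a promoter peak in both libraries, against 63.8% of all genes.

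Mesenchyme and vessel genes had promoter peaks in both libraries with 1 exception, Foxl1. Foxc1, of vessels and the mesenchyme around the eye and skull (chr13:31806633-31812476, plus strand), led them with 5.47 and 4.98, a mean of 5.23 ± 0.347. Foxd2, of kidney and skeletal mesenchyme, had 2.85 and 4.52, and Foxc2, of lymphatic vessels and their valves (chr8:121116171-121118895, plus strand), had 2.84 and 2.87. Foxc2 was nearly equal in the libraries, while Foxd2 was clearly higher in replicate 2. The hedgehog-driven genes of the mesenchyme under gut and bladder epithelium were lower: Foxf1 (chr8:121084386-121088144, plus strand) had 2.60 and 1.78, and Foxf2 (chr13:31625816-31631403, plus strand) had 1.27 and 1.07. Foxs1, of perivascular cells, had 1.03 and 1.54, a mean of 1.28, and with 500 bp either side of its TSSs the mean was 0.775. Foxd1, of kidney stroma, had 0.469 and 0.451, the lowest mean of the 29 at 0.460, though Foxi3 was lower in replicate 1 and Foxb1 in replicate 2. Its counts were small, with Poisson intervals of 0.353 to 0.610 and 0.336 to 0.593. Foxl1, of the cells just under the gut epithelium, lies next to Foxc2 but had no promoter peak in either library, with a peak of 1.93 and 1.88 centred 2260 bp upstream of its TSS.

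All 4 FoxO genes, which carry the response to low insulin and growth factor signals, had promoter peaks in both libraries. Foxo3 (chr10:42181841-42276755, minus strand) had 8.81 and 6.99, a mean of 7.90 ± 1.29, and 90.0% of all genes with a peak in both libraries had a lower mean. That peak sits at the edge of the promoter window, centred 1016 bp and 1006 bp upstream of the nearest TSS, and with 500 bp either side the mean was 4.18. Foxo6, known from brain and liver, had 6.06 and 5.40, Foxo1, of liver, fat and vessels (chr3:52268336-52353221, plus strand), had 2.78 and 3.46, and Foxo4 had 3.12 and 2.91. Foxo1 and Foxo4 overlapped in their ranges, and Foxo3 and Foxo6 lay above both in each library.

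The 4 FoxP genes also had promoter peaks in both libraries. Foxp4, of lung and gut epithelium, had 2.78 and 2.56. Foxp2, known for its part in brain and lung, had 2.17 and 1.33, and Foxp1, of many tissues, had 1.03 and 1.61. Foxp1 has 14 protein-coding TSSs, with 13 promoter peaks in replicate 1 and 11 in replicate 2, and at its outermost annotated start the strongest peak was higher, at 2.05 and 2.17. Foxp3, the factor of regulatory T cells (chrX:7573644-7595245, plus strand), had 4.31 and 4.47. Its peak is a promoter peak of Ppp1r3f as well, Foxp3 had none of its own in either library, and with 500 bp either side of the TSSs its mean was 0.716. The shared peak is centred 766 bp downstream of the outermost TSS. At the Foxp3 start in RefSeq, 6032 bp into the gene, neither library had a promoter peak.

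Among broadly acting genes, Foxn3, a repressor tied to cell cycle checkpoints (chr12:99190078-99563582, minus strand), had the highest promoter signal of the family, 10.9 and 12.1, a mean of 11.5 ± 0.812. Of all genes with a peak in both libraries 99.1% had a lower mean, and neither Foxn3 library overlapped the range of Foxo3, next in order. The peak lies in an intron 922 bp downstream of a TSS that itself is 170510 bp inside the gene. At the outermost gene start the signal was 0.989 and 1.14, and with 500 bp either side of every TSS the Foxn3 mean was 3.45. The Foxn3 intron sequence had 97 of its 220 bases inside footprints of both libraries, and they hold GTTGCCTGGCAAC. This matches the loose RFX form with 1 base between GTNNCC and GGNNAC, found in the central 200 bp of 0.720% and 0.721% of all promoter peaks.

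Foxn2, the closest relative of Foxn3, had 6.12 and 5.13. Foxk1 and Foxk2, which recruit the Sin3 repressor complex, had 3.04 and 3.84, and 3.20 and 2.91. Foxj3 had 4.61 and 4.55, in a peak it shares with Frg2f1, with 0.614 and 0.645 for its own strongest peak, and Foxj2 had 2.04 and 1.78. Foxm1, the activator of mitotic genes in dividing cells (chr6:128362967-128376146, plus strand), had 2.26 and 2.14 in a peak it shares with Rhno1, the gene that starts on its other side. Of its own peaks Foxm1 had none in replicate 1 and one of 0.566 in replicate 2. Foxk1 and Foxk2 overlapped in their ranges, and Foxn2 lay above both in each library. Foxn4, of retina and spinal cord, had no promoter peak in either library, and 12 bases of its promoter with a cut-rate false discovery rate under 0.05, the lowest 0.0425, in replicate 1.

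Of the 9 genes of nervous system, gonad and early embryo, 2 had a promoter peak in both libraries and 4 in at least 1. Foxl2, of the ovary, had 1.06 and 1.15, and Foxb1, of the brain, had 0.503 and 0.433. Foxb2 had a peak of 0.362 in replicate 2 only and Foxd4 a peak of 0.392 in replicate 1 only, both below the median peak of their library. Foxd3, of the neural crest, Foxr1 and Foxr2 had none, and Foxh1 had none at its GENCODE TSS. Of the 11 forkhead genes with no promoter peak, Foxn4 in replicate 1 was the one case with any base listed under a false discovery rate of 0.05 within the promoter, while over all genes 64.9% and 67.2% had such a base in the replicates, as did 31 and 32 of the 44. Every peak of the longer list holds such a base, so peaks and listed bases are not independent readouts.

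In the order of mean promoter signal, 9 of the 28 neighbouring pairs of forkhead genes were apart, in that the ranges of their libraries did not overlap. The breaks came after Foxn3, Foxo3, Foxc1, Foxj3, Foxo4, Foxc2, Foxp4, Foxl2 and Foxn1. Other neighbours in the order did not differ beyond the spread of the libraries. The 4 genes with a peak in 1 library were low there, from 0.362 to 0.574, and 3 of them were in replicate 2, the library with 1.33 times as many peaks. When both libraries were held to the same number of strongest peaks, 30 forkhead genes in replicate 1 and 28 in replicate 2 had a promoter peak. In both libraries 27 had one, against 61.6% of all genes, and Foxb1 and Foxd1 no longer did.

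**Figure D2:**
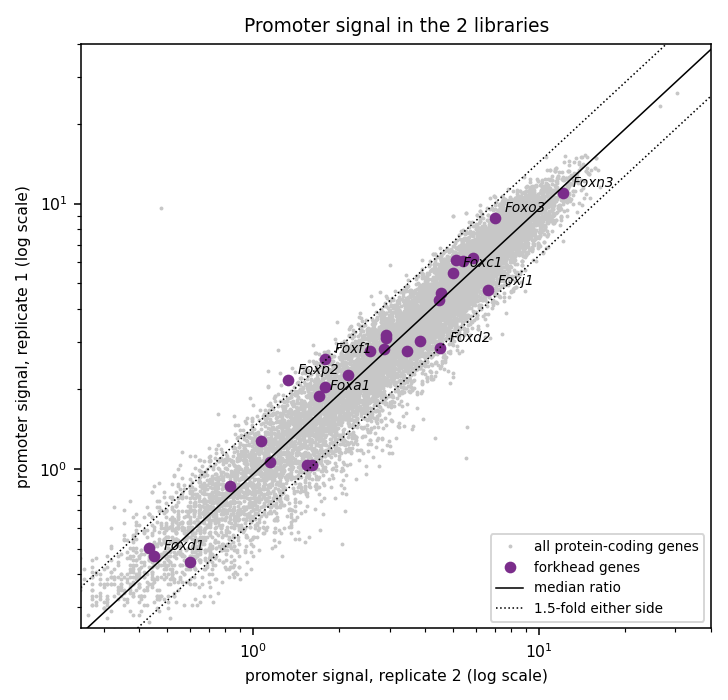
Promoter signal in replicate 1 (vertical) against replicate 2 (horizontal), both on log scales, for all protein-coding genes with a promoter peak in both libraries (grey) and the 29 forkhead genes (purple), with the median ratio (line) and 1.5-fold either side of it (dotted). Foxp2 and Foxf1 lie above the upper dotted line and Foxd2 below the lower one.

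The libraries were set against each other by the log2 ratio of promoter signal, replicate 1 over replicate 2, centred on the median of all genes with a peak in both. Past 1.5-fold, 2 of the 29 forkhead genes were higher in replicate 1, against 1.98% of all such genes. They were Foxp2, at 0.77, and Foxf1, at 0.62. In the other direction 1 of the 29 was higher in replicate 2, against 5.11%, and this was Foxd2, at -0.60. The other 26 lay within 1.5-fold, and the median of the 29 was 0.15. With the sum of all promoter peaks Foxp2 was at 0.31, Foxd2 at -0.46 and Foxf1 at 1.61, and without centring Foxf1 was at 0.55. Foxp2 and Foxd2 with summed peaks and Foxf1 without centring were then within 1.5-fold. Foxf2, with the sum of its peaks, was at 1.08, and Foxp1, without centring, at -0.64, both past it.

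Footprints followed the promoter peaks, but they lie inside accessible DNA of the same libraries and are not an independent readout. A promoter footprint was found at 30 forkhead genes in replicate 1, against 61.8% of all genes, at 32 in replicate 2, against 63.9%, and at 29 in both, against 60.6%. The numbers per gene were 24 and 27 for Foxp1, which has 14 TSSs, 15 and 11 for Foxp2 and 14 and 13 for Foxn3. They were 10 and 10 for Foxo1, 7 and 11 for Foxa1 and 5 and 5 for Foxj1.

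Away from promoters, forkhead loci had a higher median density of peaks than loci of all genes, a description with no test. They held a median of 0.468 distal peaks per 10 kb in replicate 1 and 0.631 in replicate 2, a mean of 0.550 ± 0.116 (SD, n = 2), against 0.230 and 0.383, a mean of 0.306, over all genes, and 23 of the 44 lay above the median of all genes in both libraries, against 42.2% of all genes. At least 1 distal peak was found in 32 forkhead loci in replicate 1, against 72.0% of all genes, in 39 in replicate 2, against 79.7%, and in 32 in both, against 70.3%. Of the 11 forkhead genes with no promoter peak, 7 had a distal peak in both libraries, against 44.5% of all genes with no promoter peak. With equal numbers of strongest peaks the medians were 0.470 for forkhead loci and 0.239 for all genes. The median was 0.809 and 0.935 per 10 kb in the FoxO group. It was 0.467 and 1.01 among the epithelial genes, which in replicate 1 lay just below the mesenchyme and vessel genes, with 0.477 and 0.714, and the broadly acting genes, with 0.478 and 0.490. The group of nervous system, gonad and embryo had 0 and 0.238.

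Single loci ranged from none to more than 3 peaks per 10 kb. Foxa1 held 3 distal peaks in replicate 1 and 15 in replicate 2, or 0.648 and 3.24 per 10 kb. Foxc1 held 5 and 13, or 1.09 and 2.84, and Foxq1 7 and 13, or 1.56 and 2.90. These loci were far apart between the libraries, since all distal peaks of replicate 1 at the 3 genes were also in replicate 2 and the further ones were in replicate 2 alone. Foxj1 held 6 and 7 (1.34 and 1.57 per 10 kb), Foxo3 19 and 15 (1.41 and 1.11), Foxn1 9 and 7 (1.30 and 1.01) and Foxo1 14 and 13 (1.12 and 1.04). These loci lay above the median of all genes in each library with like counts in both, though not always at the same positions. Of 20 distal positions at Foxo1, 7 were in both libraries, 7 in replicate 1 alone and 6 in replicate 2 alone. At Foxo3 13 of 21 were in both, at Foxn1 7 of 9 and at Foxj1 6 of 7. No distal peak was listed in either library for Foxb1, Foxd1, Foxk2 and Foxr2. Loci cover neighbouring genes as well, and the Foxn1 locus reaches into Slc13a2 and Unc119.

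The 44 loci held 284 distal positions, of which 149 were in both libraries, 34 in replicate 1 alone and 101 in replicate 2 alone. By place, 151 lay in introns, 96 between genes and 37 in exons, and 8 lay in the loci of more than 1 forkhead gene. Positions in 1 library were weaker, up to 1.69 in replicate 1 and 2.05 in replicate 2.

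The 10 strongest distal positions belonged to 8 loci, and 6 of them were higher in replicate 2. The strongest of all, upstream of Foxj2 at chr6:122810881-122811160, had 7.90 and 6.96, with another Foxj2 position beside it (chr6:122811361-122811560) at 5.15 and 4.03. The strongest starts 10 bp from the annotated start of Gm5112, a gene model not classed as protein-coding in the annotation used. Whether Gm5112 encodes a protein was not tested. Next came the Foxc2 position shown above, 2660 bp upstream of the gene, with 5.84 and 8.13, above the 2.84 and 2.87 of the Foxc2 promoter. The first Foxk1 position, 39.2 kb into the gene, had 7.17 and 6.52, again above the gene's promoter, and a second, at chr5:142448241-142448440, had 1.88 and 4.15. The Foxo3 position, 1416 bp upstream of a TSS, had 3.74 and 4.47, and that of Foxc1, 5252 bp upstream, had 2.66 and 3.98. The others were at Foxs1 (chr2:152914521-152914760, in an intron of Mylk2, 2.69 and 4.22), Foxn2 (chr17:88509161-88509380, beyond the gene's end, 3.59 and 2.97) and Foxf1 (chr8:121092761-121092960, in an untranslated exon of Mthfsd, 2.11 and 3.85). At Foxf2 the strongest distal peak, past the gene's end, had 1.75 and 2.87, also above its promoter.

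**Figure D3:**
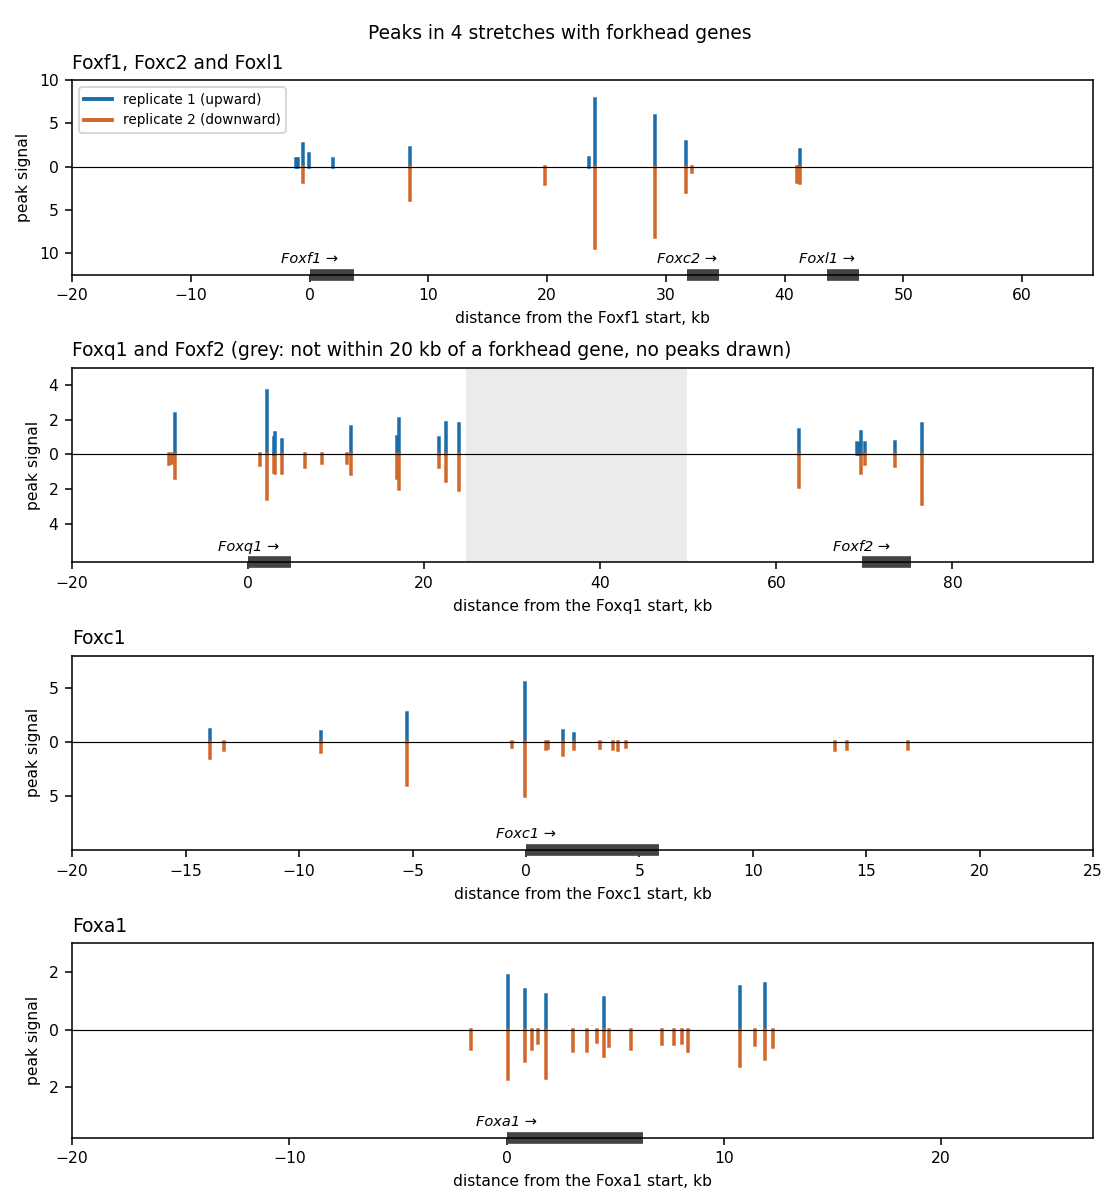
Peaks within 20 kb of forkhead genes in 4 stretches, as bars at their distance in kb from the start of the first gene named, with signal upward for replicate 1 and downward for replicate 2. Dark bars mark genes and arrows their direction, and the peak of 7.87 and 9.40 at 24 kb in the top panel is at the promoter of Mthfsd. At Foxa1 and Foxc1 replicate 2 has bars where replicate 1 has none.

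Several forkhead genes lie side by side in the genome, and the members of these clusters differed. On chromosome 8, Foxf1 and Foxc2 had promoter peaks in both libraries and Foxl1 none. On chromosome 13, Foxf2 and Foxc1 had them, and Foxq1 had its peak at the RefSeq start. On chromosome 4, Foxd2 was open in both libraries, while its neighbour Foxe3 had a peak of 0.574 in replicate 2 alone.

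Forkhead promoters were rich in CpG. In the 2 kb around the gene start the CpG ratio, observed over expected, had a median of 0.746 in forkhead genes, against 0.474 in all genes, and it was over 0.6 in 34 of 44, or 77.3%, against 33.9% of all genes. Of the 34, 26 had a promoter peak in both libraries, against 94.6% of all genes with a ratio over 0.6. Those without included Foxa2, Foxl1 and Foxd3, with none in either library, and Foxb2, Foxe1, Foxe3 and Foxd4, with a peak in 1. Foxd3 had a ratio of 0.863 and no peak. The 11 forkhead genes with no promoter peak had a median ratio of 0.536, against 0.169 for the 7104 genes of the annotation with none. The 10 forkhead genes at or below 0.6 included Foxn1, at 0.201, Foxs1, at 0.301, and Foxj3, at 0.171. The Foxj3 value is taken at the outermost start, more than 2 kb from the start that holds its peak.

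**Figure D4:**
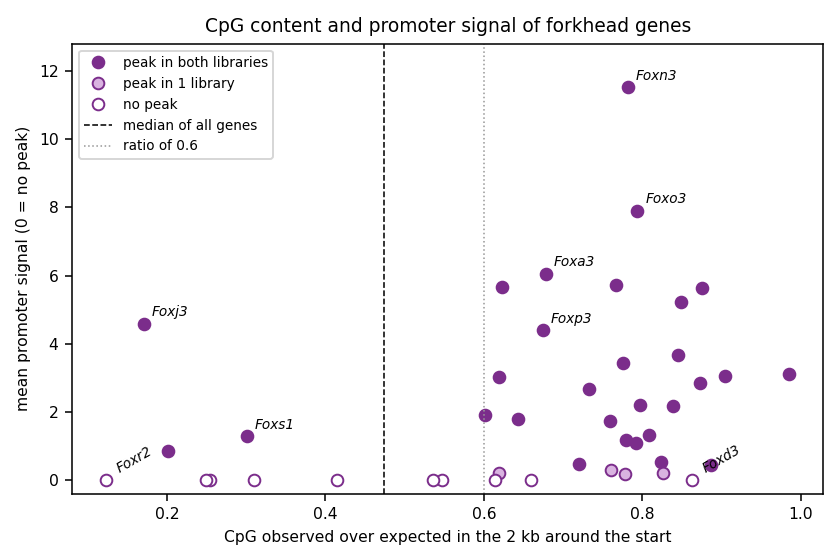
Mean promoter signal (vertical, 0 where there is no peak in either library) against the CpG ratio of the 2 kb around the gene start (horizontal) for 43 forkhead genes, filled where both libraries had a peak, pale where 1 did and open where neither did. The dashed line is the median of all genes, 0.474, and the dotted line a ratio of 0.6, right of which 26 points are filled, 4 pale and 3 open. For some genes, Foxn3 and Foxj3 among them, the strongest peak lies at another start than the one whose ratio is drawn.

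Motif matches were counted as descriptions of sequence on both strands. In footprints of forkhead loci, with 5 bp added on either side, the forkhead consensus TGTTTAC was in 3 of 634 in replicate 1 and 3 of 797 in replicate 2, or 0.473% and 0.376%, against 0.120% and 0.115% of all footprints. The 6 footprints were at Foxf1, Foxp1 and Foxp2 in replicate 1 and at Foxj3, with 2, and Foxm1 in replicate 2, and that of Foxm1 was the one overlapped by a footprint of the other library. Both forkhead shares rest on counts of 3. The related TGTTTGC showed no such excess, in 1 and 2 footprints of forkhead loci, or 0.158% and 0.251%, against 0.219% and 0.235% of all footprints. In the central 200 bp of distal peaks TGTTTAC was in 17 of 184 peaks of forkhead loci in replicate 1 and 16 of 251 in replicate 2, or 9.24% and 6.37%, against 4.53% and 4.22% of all distal peaks. A TGTTTAC match is also in the Foxk1 sequence shown, at bases 35 to 41, outside its footprints. It is not wholly inside the central 200 bp of the region as printed.

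The SP/KLF consensus GGGCGG was in 19.0% and 15.9% of distal peaks of forkhead loci, against 10.9% and 9.05% of all distal peaks, and the AP-1 consensus TGANTCA in 14.1% and 11.6%, against 19.0% and 17.1%. The Foxq1 sequence carries 2 AP-1 matches, TGAGTCA at bases 80 to 86 and TGAATCA at bases 95 to 101, and its peak had 2.06 and 2.01. Of its bases 13 lay in footprints of replicate 1, 36 in those of replicate 2 and 2 in both. Neither match thus lies within footprints common to both libraries. After the sequences had been read, 2 further consensus motifs were counted. A core of the CTCF motif, AGGGGGCGC, lies within the Foxc1 run of footprints common to both libraries and, outside footprints, in the Foxo3 sequence. It was in 3.26% and 2.79% of distal peaks of forkhead loci, against 1.45% and 1.39% of all. A core of the YY1 motif, AANATGGC, lies within the longer common run of the Foxc2 sequence and was in 2.72% and 3.19%, against 2.81% and 3.0% of all distal peaks.

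The 6 lists of genes that act with forkhead factors were chosen with earlier results of these data known. They are to be read against the 63.0% of all protein-coding genes with a promoter peak in both libraries, with no test. Among all genes with a CpG ratio over 0.6 that share was 94.6%, and the listed genes were not sorted by this ratio. Among 16 regulators of FOXO proteins, kinases, 14-3-3 proteins, ubiquitin enzymes and acetyltransferases, all 16 had promoter peaks in both libraries, led by Ywhaz, a 14-3-3 protein (7.85 and 8.18), Pik3ca, the catalytic subunit of PI3-kinase (8.46 and 7.40), and Skp2, a ubiquitin ligase subunit (8.25 and 6.95). Among 18 known FOXO targets 15 had them, led by Txnip, a thioredoxin inhibitor (12.3 and 12.2), Sod2, the mitochondrial superoxide dismutase (9.78 and 9.70), and Sesn3, a stress-induced sestrin (9.13 and 7.33). Trim63, of muscle wasting, and G6pc, of glucose output in liver, had none, and Pck1, of the same liver pathway, had 0.672 in replicate 2 alone. Fbxo32, the other target of muscle wasting, was the lowest of the 15, at 1.95 and 2.29.

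Of 10 epithelial factors known to act beside FOXA1 in urothelium, 9 had promoter peaks in both libraries. Klf5 (7.56 and 6.83), Gata3 (5.77 and 5.31) and Elf3 (3.27 and 3.77) led, all above Foxa1 in each library, and Trp63, of basal cells, had 0.529 in replicate 1 alone. Of 11 genes listed for the hedgehog pathway, which acts upstream of Foxf1 and Foxf2, 9 had them. They were led by Sufu, an inhibitor of the pathway (7.69 and 9.11), Gli1, its transcription factor (2.53 and 4.06), and Ptch1, its receptor (2.60 and 2.62). Bmp4, also listed and counted, is a BMP signal rather than a part of that pathway, and had 2.74 and 1.64. The ligand Shh had 0.964 and 1.03, and the ligands Ihh and Dhh had no promoter peak in either library.

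All 10 mitotic genes of the FOXM1 program had promoter peaks in both libraries, led by Cenpf, of the kinetochore (7.59 and 7.24), Nek2, a centrosome kinase (5.35 and 6.80), and Birc5, known as survivin (5.07 and 5.36). All 10 co-factors of FOXK, FOXP and FOXH1 proteins did too, led by Sin3a, a co-repressor (8.47 and 8.93), Gatad2b, of the NuRD complex (7.53 and 7.87), and Smad4, a mediator of TGF-beta signals (7.25 and 6.05). An open promoter is not a measure of how much a gene is expressed, and expression was not measured here.

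**Figure D5:**
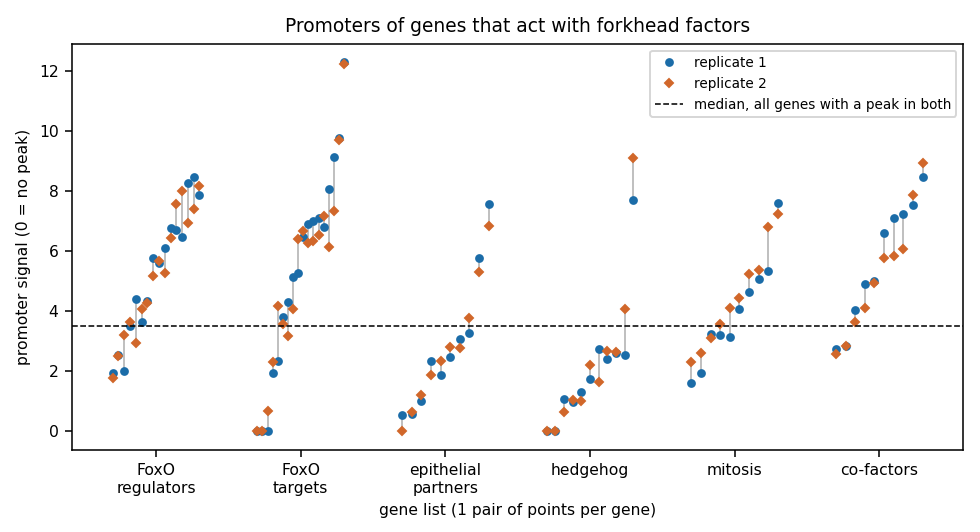
Promoter signal of each gene (vertical, 0 where there is no promoter peak) in 6 lists of genes that act with forkhead factors, ordered by mean within a list, with circles for replicate 1, diamonds for replicate 2 and a dashed line for the median of all genes with a peak in both, 3.51. Txnip, at 12.3 and 12.2, is the highest point, and the points at 0 in both libraries are Trim63, G6pc, Ihh and Dhh.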

How the data were processed

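DNase-seq peaks, footprints and cut-rate stretches of 2 bladder libraries, each called per library, were used as deposited. The build is mm10, per the labels, while aligner and peak caller are not stated in the sources used. In each library the deposited signal of a peak came in whole steps, of 0.00853 in replicate 1 and 0.00884 in replicate 2, for 100% of peaks within a tolerance of 0.02 steps. It was therefore treated as a scaled count, whose scale is not stated. A median peak held 96 and 86 steps. Total depth is unknown, and Poisson intervals from these steps cover counting error only. The authors deposited cut-rate false discovery rates, on the p-value scale, for stretches under 0.05. Every peak of the longer list held such a base, and those of the shorter list 1 under 0.001. Deposited footprints carry 0.01 in every row and could not be ranked.

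Promoters (1 kb either side of 54361 TSSs of protein-coding transcripts), loci (gene body with 20 kb on either side) and distal peaks (overlapping no promoter of a protein-coding gene) were joined to the longer list by overlaps of at least 1 bp, with code tested on simulated intervals (Python 3.11.15, pandas 2.3.3, numpy 2.4.6, pysam 0.24.0). RefSeq gene starts matched all 44 forkhead genes by symbol. The forkhead symbols and gene lists were chosen with earlier results of these data known, and 1 listed gene, Foxl3, was not found in the annotation used. Values are per library or mean ± SD over n = 2. With 1 group no test was possible. Of the forkhead genes 1 counts in the totals and is not reported by itself here. All others, the 10 strongest distal positions, and of each list the 3 highest promoters and those with none were named, and others after their values were seen. Alternatives changed promoter width, TSSs, peak list, overlap, locus flank, motif letters and libraries.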

Additional observations from a re-analysis of the deposited data

How the results depend on the processing

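The number of forkhead genes with a promoter peak in both libraries was 29, between 25 and 32 over all alternatives, which left it within 1.5 times. It was 25 with the shorter list, without Foxb1, Foxd1, Foxi3 and Foxn1, against 58.3% of all genes. With 2 kb either side of a TSS it was 32, with Foxa2, Foxh1 and Foxq1, against 65.2% of all genes. Their median promoter signal of 2.86 moved by more than the spread of the libraries, the SD of 0.0651 between the library medians, under most alternatives. It was 2.76 with 500 bp and 2.93 with 2 kb either side, 3.05 with the shorter list, 3.01 with equal numbers of strongest peaks, 2.44 with the gene start as the one TSS, 2.43 without peaks near another gene and 4.97 with promoter peaks summed. It was 3.01 with RefSeq starts added, which, like the use of TSSs of all transcripts, was chosen after seeing the data. Over all forkhead genes with a peak in the one library used, 30 in replicate 1 and 32 in replicate 2, it ranged from 2.35 to 2.78. The distal density of 0.550 per 10 kb, against 0.306 for all genes, was 0.260 with the shorter list, against 0.171. With promoter peaks counted in it was 0.939, against 0.653. The share of footprints with the forkhead motif, a mean of 0.425%, was 0.204% with TGTTTGC, 0.0789% with TTGTTTAC, 0.158% with no bases added and 0.866% with 10 bp added. With TTGTTTAC, and with no bases added, none of the 797 footprints of replicate 2 matched. Apart from TGTTTGC, which is another sequence, these settings widen or narrow what is counted. The cause of the differences was otherwise not tested. Other counts and medians stayed within 1.5 times or the spread of the libraries. Of values of single genes under an alternative, 34 levels moved by more than the spread, 3 ratios between the libraries fell back within 1.5-fold and 2 passed it. The other 405 were levels within the spread or ratios on the same side of the 1.5-fold line. Of 113 ratios 15, at 11 genes, changed sign, all of them within 1.5-fold in both settings. Foxs1, for one, was at -0.51 and turned to 0.35 with 500 bp. No paired analysis was possible because the series holds 1 group. With 2 libraries the SD itself is poorly known, and a missing peak says that none was listed at this depth, not that the promoter is closed in every cell.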
